A study of Bos taurus with 129 samples.

Results

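The 36 genes described here encode collagens, other proteins of the extracellular matrix and receptors of matrix-producing cells, and they were measured in the whole blood of beef cattle. They were listed by symbol, all 36 symbols were present among the 32395 genes of the count table, and the list was chosen with the values of these libraries in view, in particular the comparison of healthy AAC and INR steers at day 13 and the library of a healthy INR steer at that day. The mean of the 36 genes, the libraries in which it was high and that comparison are therefore given as a description. Where calls or Dixon ratios from them are printed, nothing is read from these.

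Blood of 26 crossbred steers was taken at arrival (day 0) and at days 13, 28, 45 and 60, which gave 1 library for each steer and day, except that no library of steer 48 at day 13 was analysed here. Of the steers, 12 remained healthy (4 each fed the AAC, COMBO and INR supplements) and 14 were treated for bovine respiratory disease (BRD) during the trial (4 AAC, 3 COMBO and 7 INR). INR steers received sulfates of copper, cobalt, manganese and zinc, AAC steers received the same metals complexed with amino acids, and COMBO steers received the complexes together with an oral mineral drench before shipment, at day 0 and with any treatment for disease. All were hauled and vaccinated alike, and were bled from the jugular vein into tubes that lyse the blood. Steers were penned by supplement at enrollment (AAC in pens 2 and 8, COMBO in pens 5 and 6, INR in pens 3, 4 and 7), so supplement and first pen cannot be told apart. All healthy COMBO steers were in pen 5 and all BRD COMBO steers in pen 6, so disease and first pen cannot be told apart among COMBO steers. No label gives a date of extraction or sequencing. Total counts per library ranged from 31613545 to 61692136, with a median of 44268685, and Spearman's rho between the total and the mean of the 36 genes was -0.060 over all libraries, which come from only 26 steers.

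Connective tissue is laid down mainly by fibroblasts, which secrete fibrillar collagens as procollagen, trim and crosslink them outside the cell, and surround them with proteoglycans, elastic fibres and matricellular proteins. Leukocytes, the main source of RNA in blood, make little of the fibrillar collagens, although some of the genes in the list are also used by blood cells. The libraries had the make-up of blood: PTPRC, the pan-leukocyte phosphatase CD45, had a median of 2001 CPM (counts relative to library size, scaled by TMM factors) and was never below 1451 CPM. In bulk blood, fewer cells of a type and less RNA per cell cannot be told apart.

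At the usual level most of the 36 genes were near the limit of detection. The median over all libraries was below 1 CPM for 21 genes and 0 for 6 of these, while 15 genes had a median of 1 CPM or more and 8 were at or above 1 CPM in every library. The well-measured genes were PCOLCE, which enhances procollagen cleavage (29.8 to 75.2 CPM, median 46.1), TIMP3, an inhibitor of metalloproteinases (20.5 to 89.7 CPM, median 47.2), ELN, the elastic fibre protein (7.61 to 94 CPM, median 25.52), OGN, a small leucine-rich proteoglycan (2.71 to 53.7 CPM, median 16.38), and COL14A1, a fibril-associated collagen (3.36 to 55.6 CPM, median 10.7). In contrast, COL1A1, which encodes the main chain of type I collagen, ranged from 0 to 2492 CPM with a median of 1.76 CPM. It was at 0 in 14 libraries, at 1 CPM or less in 50 and above 100 CPM in 7. A count of 0 does not show absence: a level of up to 3 counts was taken as compatible with it, which covers counting error only.

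The mean log2 CPM of the 36 genes had a median of -0.37 over all libraries and ranged from -1.64 to 5.60. A library was called high when this mean exceeded 1.52, which is 3 scaled median absolute deviations (0.63 each) above the median, and 11 libraries from 9 steers did so. The lowest of the 11 had a mean of 1.66 and the next library below the line, of healthy AAC steer 34 at day 60, had a mean of 1.44. The libraries above the line came once for 7 of the 9 steers and at days 13 and 28 for the other 2: none was taken at day 0, 5 were taken at day 13, 4 at day 28, 1 at day 45 and 1 at day 60. They were 5 libraries of healthy and 6 of BRD cattle. By supplement they were 5 of 39 AAC, 1 of 35 COMBO and 5 of 55 INR libraries.

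**Figure D1:**
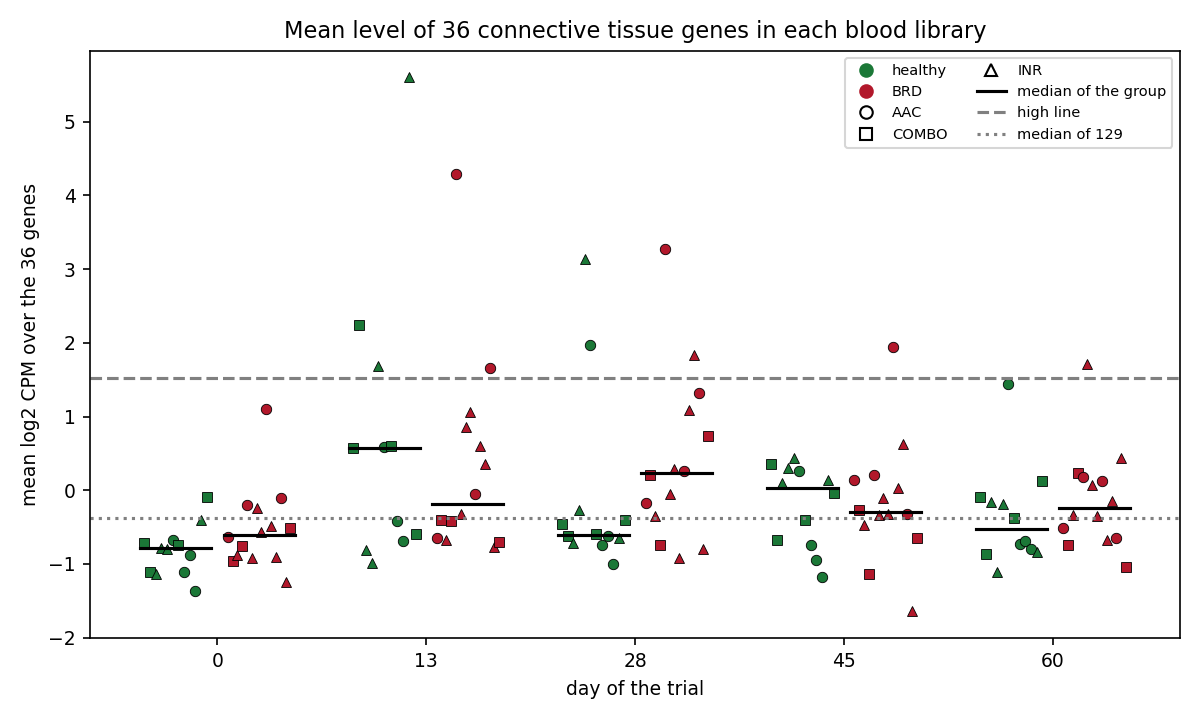
Mean log2 CPM of the 36 connective tissue genes (y axis) in every library by day (x axis), coloured by disease and shaped by supplement, with the median of each group as a bar. The 11 libraries above the dashed high line of 1.52 lie at days 13 to 60, and both healthy and BRD cattle are among them.

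The highest library was that of healthy INR steer 50 at day 13, with a mean of 5.60. In it, 33 of the 36 genes were at least 2-fold above their own median over all libraries, and the 36 genes together had 7826 CPM against a median of 216 CPM. The 3 genes that were not were PCOLCE, TIMP3 and ELN, at 75.2, 89.7 and 49.98 CPM. COL1A1 in steer 50 was at 16.7, 2492, 0, 5.75 and 0.139 CPM on the 5 days in order. At day 28 COL1A1 was listed at 0, below its level at day 0. The second library was of BRD AAC steer 21 at day 13, with a mean of 4.29 and 34 of 36 genes at least 2-fold above their median. In this steer COL1A1 was at 2.41, 1233, 345, 1.16 and 3.95 CPM on the 5 days, so that days 13 and 28 were both high. Healthy INR steer 30 was also above the line at days 13 and 28, with COL1A1 at 0.111, 31.3, 467, 11.5 and 2.52 CPM. The other 6 steers were above the line once. They were healthy COMBO steer 6 at day 13 (mean 2.25), healthy AAC steer 34 at day 28 (1.97), BRD AAC steer 31 at day 45 (1.95), BRD INR steer 40 at day 28 (1.84), BRD INR steer 23 at day 60 (1.72) and BRD AAC steer 41 at day 13 (1.66). In the 11 libraries between 21 and 34 of the 36 genes were at least 2-fold above their median, against 0 to 22 in the libraries under the line.

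**Figure D2:**
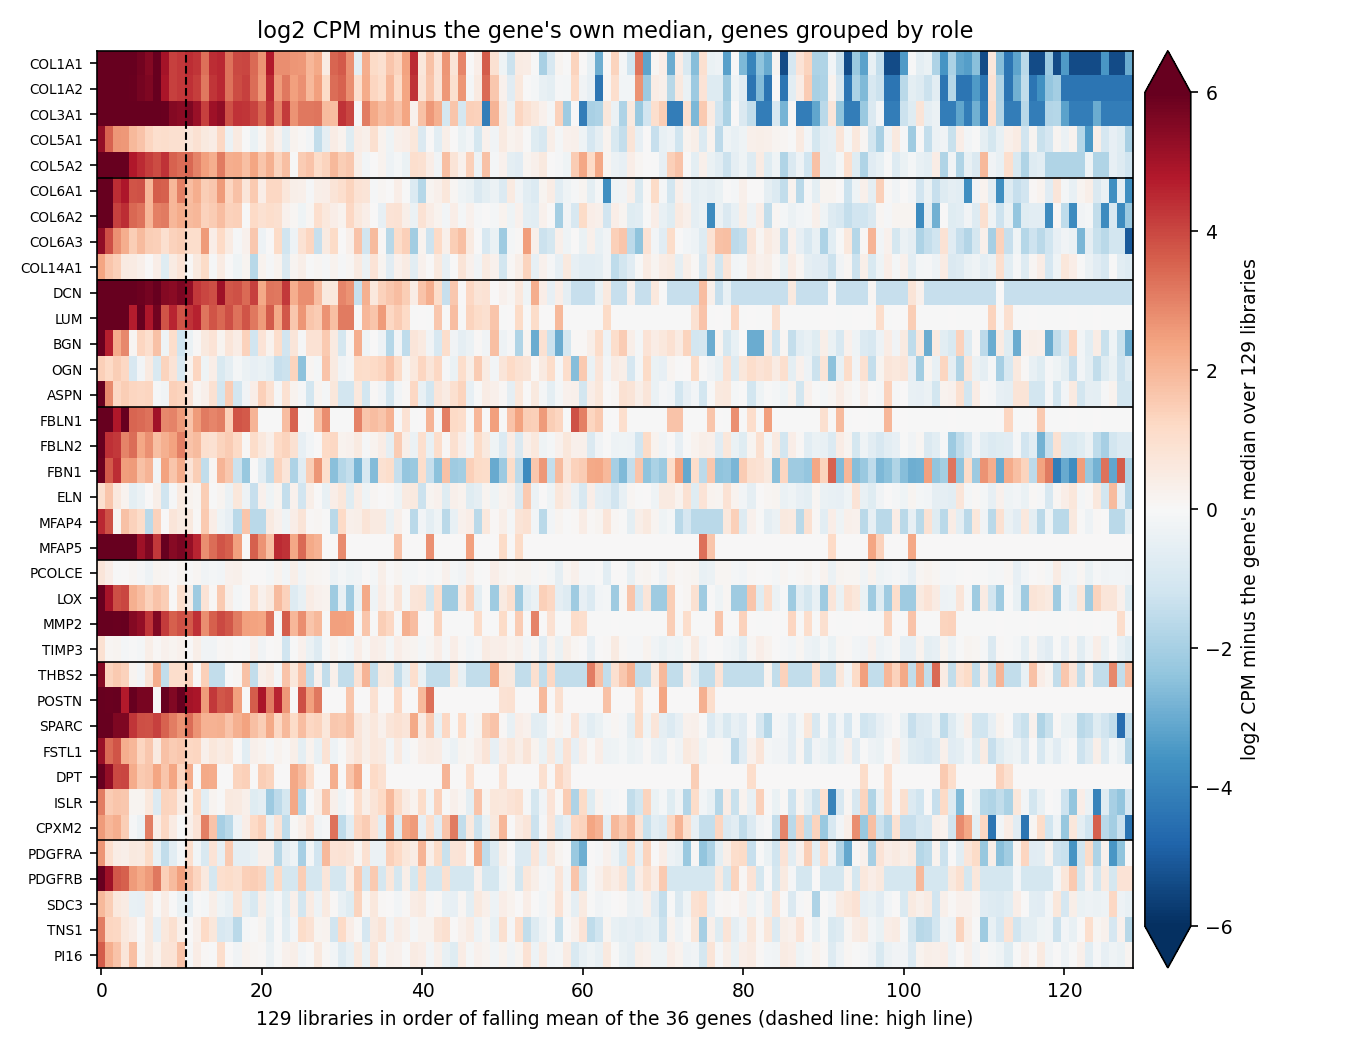
Log2 CPM of each of the 36 genes minus its own median over all libraries (colour), with libraries in order of falling mean (x axis) and genes grouped by role (y axis). To the left of the dashed line, fibrillar collagens, DCN, LUM, MFAP5, MMP2, POSTN and SPARC are mostly high together. An exception is POSTN, listed at 0 in BRD INR steer 40 at day 28. PCOLCE and TIMP3 show little change.

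COL1A1, COL1A2 and COL3A1 kept to similar proportions in these libraries. The ratio of COL1A1 to COL1A2, the partner chain of type I collagen, lay between 1.82 and 2.10 in all 11 libraries (median 2.01), while COL1A1 itself ran from 31.3 to 2492 CPM. The ratio of COL1A1 to COL3A1, the type III collagen of loose tissue, ran from 0.874 to 1.85. In libraries under the line it was not always so. COL1A1 and COL3A1 were at 22.6 and 0 CPM in BRD AAC steer 41 at day 0. They were at 16.7 and 0.128 CPM in healthy INR steer 50 at day 0, but at 38.9 and 38.7 CPM in healthy AAC steer 34 at day 60. The ratio to SPARC, a collagen-binding matricellular protein, ran from 3.54 to 10.6, and that to DCN, the collagen-binding proteoglycan decorin, from 5.91 to 20.39. Since all these genes helped to define the libraries, the ratios describe their make-up and are not a test.

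**Figure D3:**
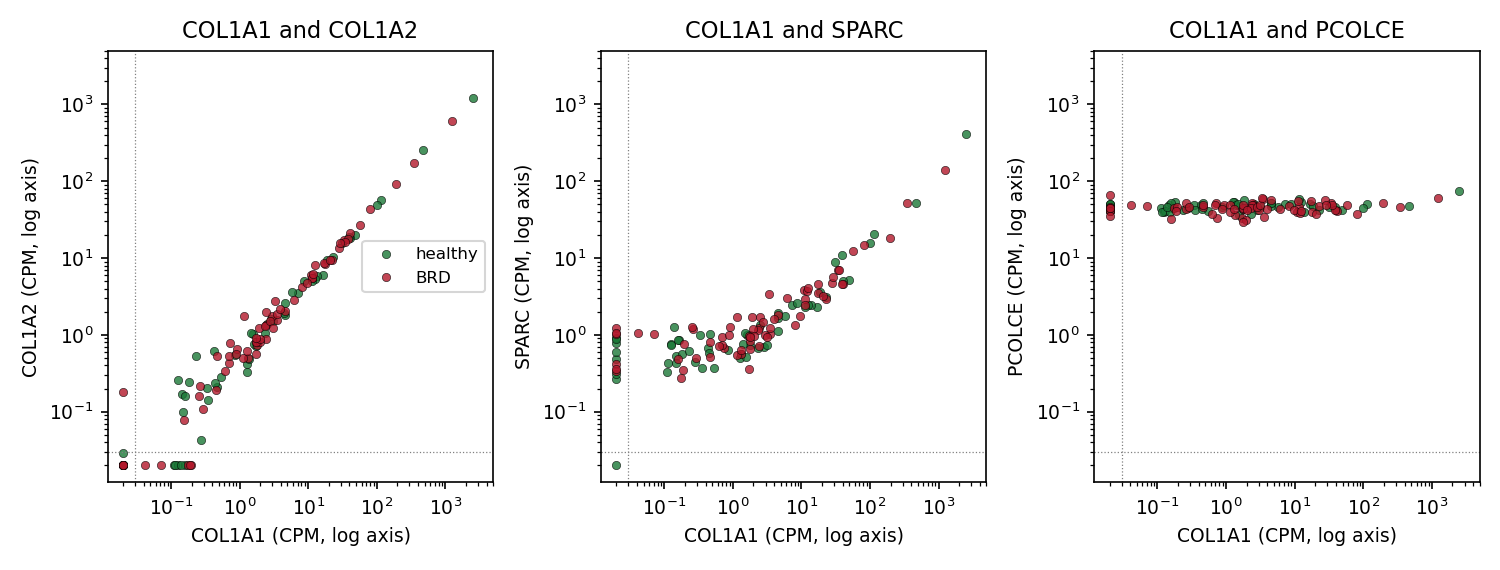
CPM of COL1A2, SPARC and PCOLCE (y axes, log scale) against CPM of COL1A1 (x axes, log scale) in all libraries. Values listed at 0 are drawn below the dotted lines, where a very low value can also lie. COL1A2 follows COL1A1 over the whole range, SPARC follows it above a few CPM, and PCOLCE stays between 29.8 and 75.2 CPM at every level of COL1A1.

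Over all libraries the genes moved together only loosely. Spearman's rho between pairs of the 36 genes had a median of 0.242 over the 630 pairs, and ran from -0.260 to 0.979. The median was 0.319 among the 21 genes with a median below 1 CPM and 0.203 among the other 15. These values are over all libraries that share steers. With the mean of the other 35 genes, rho was 0.863 for COL1A2, 0.844 for COL1A1, 0.831 for SPARC, 0.820 for COL3A1 and 0.816 for DCN. It was 0.130 for ELN, 0.13 for FBN1, the microfibril protein fibrillin, 0.119 for SDC3, a cell-surface proteoglycan, and 0.040 for THBS2, a thrombospondin. Of the 36 genes, 32 had their highest value in steer 50 at day 13 and 1 in steer 21 at day 13. The other 3 were ELN (94 CPM, BRD INR steer 43 at day 0), OGN (53.7 CPM, healthy INR steer 50 at day 45) and CPXM2, a carboxypeptidase-like secreted protein (10.9 CPM, healthy INR steer 7 at day 0).

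Some genes of the list kept a level of their own in each steer. Differences between steers made up 85% of the variance of log2 CPM for CPXM2, 71.40% for COL14A1, 70.5% for FBN1 and 64.8% for COL6A3, a chain of type VI collagen. CPXM2 in BRD AAC steer 31 was at 7.35, 7.96, 8.74, 7.79 and 4.62 CPM on the 5 days, while the 4 libraries of healthy AAC steer 48 were at 0, 0.286, 0 and 0.149 CPM. FBN1 in healthy AAC steer 49 was at 93.5, 87.4, 66.6, 71.5 and 69.6 CPM. In BRD AAC steer 21 it was at 0.502, 95.6, 164, 1.11 and 1.22 CPM, and only its 2 high libraries were above 2 CPM. For COL1A1, COL1A2 and COL3A1, in comparison, the share between steers was 32%, 32% and 30.2%, and for the mean of the 36 genes it was 31.9%, with a further 13.4% between days.

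The first comparison asked whether the genes changed over the trial, with days 13, 28, 45 and 60 each tested against day 0 as the mean over the 6 combinations of disease and supplement, in edgeR's quasi-likelihood test on all libraries. All 36 genes passed the filter on low counts and were tested among 18937 genes, but a gene that passed only through the libraries in which it was high had to differ, so the share called is a description. The day 13 side also holds the library of steer 50 and the healthy steers that led to the list, so the calls at day 13 are not independent of the choice of genes. The libraries of days 28, 45 and 60 were in view as well, so the calls at those days are not independent of that choice either. At day 13, 19 of the 36 genes were called higher and 0 lower at a false discovery rate (FDR) of 0.10. At day 28, 18 were called higher and 0 lower. At day 45 there were 4 called higher (COL3A1, ISLR, OGN and PDGFRA), and at day 60 there were 4 called higher (COL3A1, ISLR, PDGFRA and TNS1) and 1 lower (ELN). Among all genes tested, 21.1%, 21.2%, 14.9% and 17.9% were called at the 4 days in either direction, and 10.1%, 10.5%, 8.02% and 8.54% were called higher. The mean of the 36 genes was higher than at day 0 in 20 of 25 steers at day 13, and in 22, 21 and 20 of 26 steers at days 28, 45 and 60. The fitted log2 fold changes had a median of 1.80 over the 36 genes at day 13, against 0.0049 over all genes, and of 1.25, 0.60 and 0.51 at the later days, against 0.012, -0.0022 and 0.010 over all genes. In these comparisons 8 of the 36 genes had a group of libraries without any count, for which the fitted fold change depends on the prior count. Of the genes called, 2 at day 13 and 4 at day 28 were among them. The log2 ratio of mean CPM, which needs no prior count, had a median of 2.70, 1.34, 0.60 and 0.52 over the 36 genes at the 4 days, but a mean can be carried by single libraries. Without the 8 genes, the fitted fold changes had a median of 1.24, 0.70, 0.40 and 0.31.

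In BRD cattle alone, the same day comparisons were fitted on 70 libraries, a setting added after seeing the data. This leaves out steer 50 and the healthy groups of day 13, although the BRD libraries were in view as well. It keeps the high libraries of BRD AAC steer 21 at days 13 and 28, with COL6A1 at 65.7 CPM at day 13. The fit had no block for the steer. Of the 34 genes tested, 4 were called higher at day 13 (COL5A1, COL6A1, FBLN2 and SPARC), 10 at day 28, 2 at day 45 (ISLR and PDGFRA) and 1 at day 60 (ISLR), and ELN was called lower at day 60. Among all genes, 6.48%, 4.59%, 5.18% and 5.35% were called at the 4 days. COL6A1 had a log2 fold change of 2.43 (SE 0.69, FDR = 0.0333, edgeR) at day 13. COL1A1 had one of 2.85 (SE 1.14, FDR = 0.152, edgeR) at day 13, which did not pass, and of 3.94 (SE 1.21, FDR = 0.0645, edgeR) at day 28. The 10 genes at day 28 were COL1A1, COL1A2, COL3A1, COL6A1, FBLN1, ISLR, LUM, PDGFRA, PDGFRB and SPARC.

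All 5 fibrillar collagens were called higher at day 13 and again at day 28 in the fit on all libraries, and none of them at either day without the 11 high libraries. COL1A1 had a lowest, median and highest value of 0, 0.892 and 22.6 CPM over 26 libraries at day 0, and of 0, 4.54 and 2492 CPM over 25 libraries at day 13. The 2 ranges overlapped widely, and 21 of 25 steers had more at day 13 than at day 0. Its log2 fold change was 3.86 (SE 0.94) at day 13 and 3.20 (SE 0.90, FDR = 0.0080, edgeR) at day 28, where the median was 1.04 CPM and the highest value was 467 CPM. Without the 11 high libraries, which were picked by the mean of these genes, the fold change of COL1A1 at day 28 was -0.13 (FDR = 0.954, edgeR). COL3A1 had medians of 0.214, 2.48, 0.631, 0.823 and 0.843 CPM on the 5 days and was called higher at each of the later days, with log2 fold changes of 5.37 (SE 1.09), 4.61 (SE 1.05), 2.46 (SE 0.96) and 2.44 (SE 0.95). COL1A2 had medians of 0.374 CPM at day 0 and 2.03 CPM at day 13. COL5A1 and COL5A2, the chains of type V collagen that start fibril assembly, had log2 fold changes of 1.38 (SE 0.29) and 3.48 (SE 0.71) at day 13.

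Of the 4 other collagens, 3 were called higher at day 13 and 2 at day 28. COL6A1, a chain of the type VI collagen that surrounds cells, had a log2 fold change of 2.91 (SE 0.50) at day 13. Its median was 0.349 CPM at day 0 and 0.666 CPM at day 13, and its highest value rose from 1.55 CPM to 87.6 CPM. The value was higher than at day 0 in 21 of 25 steers at day 13 and in 21 of 26 at day 28. COL6A2 had a log2 fold change of 2.49 (SE 0.49) at day 13 and medians of 0.378 and 0.759 CPM. COL14A1 was called only with the steer as a replicate block, lower at days 45 and 60, by 0.30 and 0.28 on the log2 scale (FDR = 0.0244 and 0.0385, edgeR), and was lower than at day 0 in 20 and 21 of 26 steers.

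Among the 5 small leucine-rich proteoglycans, ASPN, BGN and DCN were called higher at day 13, and BGN, LUM and OGN at day 28. ASPN, asporin, was called although its median moved only from 0.0495 to 0.0856 CPM and its highest value at day 13 was 8.58 CPM. Of the 6 genes of elastic fibres and basement zones, FBLN2 and MFAP4 were called higher at day 13, and FBLN1 and FBLN2 at day 28. FBLN2, fibulin-2, had a log2 fold change of 1.89 (SE 0.36) at day 13 and was higher than at day 0 in 19 of 25 steers. ELN was called lower at day 60, by 0.57 on the log2 scale (SE 0.16, FDR = 0.0104, edgeR), with a median of 27.7 CPM at day 0 and 20.38 CPM at day 60 and a lower value in 22 of 26 steers. Of the 4 genes of assembly, crosslinking and turnover, LOX, which crosslinks collagen and elastin, was called higher at days 13 and 28, and MMP2, a collagen-degrading protease, at day 28. The call of LOX at day 28 was lost with the replicate block (log2 fold change 0.94, FDR = 0.119, edgeR). PCOLCE had medians of 44.2, 46.9, 48.2, 44.2 and 46.5 CPM on the 5 days and TIMP3 of 48.3, 49.4, 43.96, 46.44 and 50.2 CPM, and neither was called without the replicate block. With it, PCOLCE was called higher at day 13, by 0.10 on the log2 scale (FDR = 0.0743, edgeR). SPARC, the most strongly called of the 7 matricellular and other secreted proteins, had medians of 0.738 and 1.83 CPM at days 0 and 13 and a log2 fold change of 2.90 (SE 0.55). Among the 5 receptors and cell-bound proteins, PDGFRA, PDGFRB and PI16 were called higher at day 13 and PDGFRA and PDGFRB at day 28.

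**Figure D4:**
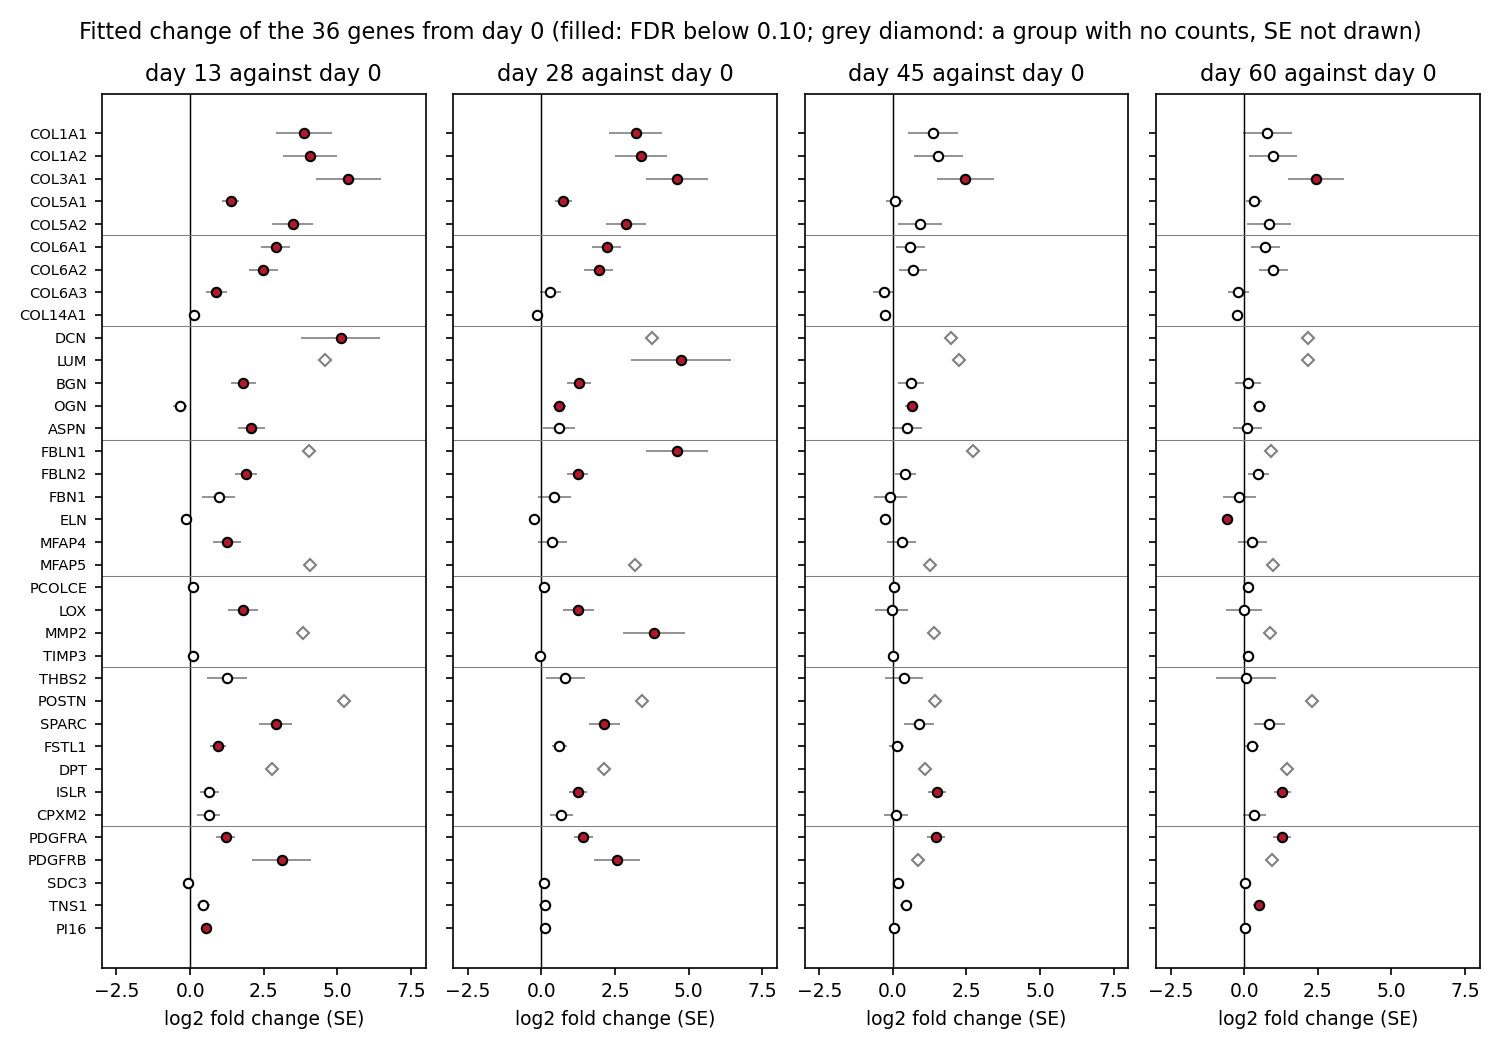
Fitted log2 fold change of each of the 36 genes from day 0 (x axis, bars show the SE) at days 13, 28, 45 and 60. Genes are grouped by role (y axis), and points are filled at FDR below 0.10. Grey diamonds without SE mark genes that were not called and had a group without counts. Filled points include 2 genes at day 13 and 4 at day 28 that also had such a group. The 19 genes called at day 13 and the 18 at day 28 include every fibrillar collagen, and PDGFRA is filled at all 4 days.

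The 11 high libraries were picked by the mean of these same genes and none lies at day 0, so leaving them out could only lower the mean of the genes at the later days. Without the 11 libraries above the line, a setting chosen after seeing the data, the number of the 36 genes called was 1 at day 13, 4 at day 28, 3 at day 45 and 5 at day 60, while 10.8%, 20.5%, 13.5% and 17.8% of all genes were called. The 1 gene at day 13 was COL6A1, and those at day 28 were COL6A1, ISLR, OGN and PDGFRA. With each steer left out, the counts lay between 14 and 21 at day 13, 12 and 19 at day 28, 2 and 4 at day 45 (2 without steer 16 or 46), and 3 and 6 at day 60 (3 without steer 7, 18, 21, 34 or 57). With the steer as a replicate block, which uses the pairing of libraries by animal, 32, 22, 8 and 11 of the 36 genes were called at days 13, 28, 45 and 60, where 6291, 6825, 5861 and 6318 of the 18937 genes were called.

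PDGFRA, ISLR and OGN, the 3 of the 36 genes with the largest share of variance between days, were higher than at day 0 in most steers at days 28 to 60, as were other members such as COL6A2 (21, 19 and 21 of 26 steers) and FBLN2 (21, 19 and 19 of 26). PDGFRA, the alpha receptor for platelet-derived growth factor, had medians of 1.69, 4.03, 6.06, 5.86 and 5.55 CPM on the 5 days. It was higher than at day 0 in 22 of 25 steers at day 13, in 26 of 26 at day 28, in 25 of 26 at day 45 and in 26 of 26 at day 60, with log2 fold changes of 1.22 (SE 0.32), 1.42 (SE 0.32), 1.47 (SE 0.32) and 1.29 (SE 0.32). ISLR, a secreted leucine-rich repeat protein, had medians of 0.283, 0.469, 0.763, 0.810 and 0.816 CPM. It was higher than at day 0 in 24 of 26 steers at each of days 28, 45 and 60, with log2 fold changes of 1.24 (SE 0.30), 1.49 (SE 0.30) and 1.3 (SE 0.30). OGN, osteoglycin, had medians of 13.98, 11, 23.96, 23.35 and 21.83 CPM. At day 13 it was lower than at day 0 in 18 of 25 steers, and it was called lower there only with the steer as a replicate block, by 0.40 on the log2 scale (FDR = 0.0449, edgeR). At days 28 and 45 it was called higher, with log2 fold changes of 0.60 (SE 0.22) and 0.64 (SE 0.23), and it was higher in 22 of 26 steers at both days. At day 60 it was higher in 21 of 26 steers and was called higher only with the replicate block (log2 fold change 0.57, FDR = 0.0025, edgeR). The share of variance between days was 30.2% for PDGFRA, 24.6% for ISLR and 23.7% for OGN, against 10.3% for COL1A1.

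The second comparison asked whether cattle treated for BRD differed from healthy cattle at a given day. No member of the list was called at any of the 5 days (edgeR), and 0.0158%, 0%, 0.00528%, 0% and 0.00528% of all genes were called at days 0, 13, 28, 45 and 60. At an unadjusted p under 0.05 there were 1, 4, 1, 0 and 0 of the 36 genes, against 7.11%, 3.78%, 8.63%, 4.22% and 3.64% of all genes, and DESeq2 called 5, 2, 1, 0 and 1. The 5 genes at day 0 with DESeq2 were DCN, LUM, MFAP5, MMP2 and POSTN, each of which was at 0 in more than 10 of the 26 libraries of that day. The mean of the 36 genes at day 13 had a median of 0.58 (lowest -0.99, highest 5.60) over 11 libraries of healthy cattle and of -0.18 (lowest -0.77, highest 4.29) over 14 of BRD cattle, and at day 28 the medians were -0.60 and 0.24. The ranges of the 2 groups overlapped at every day.

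The third comparison asked whether the form of the supplemented minerals mattered. The mean of the genes in BRD cattle was also in view when the list was chosen, so the calls in BRD cattle are not independent of it. At day 13, 6 of the 36 genes were called higher in AAC than in INR (COL6A1, COL6A2, FBLN1, FSTL1, OGN and SPARC), against 0.924% of all genes. As a change from day 0, with the steer as a replicate block, none of the 36 genes and 4 of all genes were called at day 13, and none of the 36 at day 28. COL6A1 was at 0.353, 65.7, 0.570 and 4.59 CPM in AAC steers 9, 21, 31 and 41, and at 0.339, 0.502, 1.35, 3.29, 0.697, 0.666 and 0.214 CPM in INR steers 17, 23, 27, 29, 39, 40 and 43. SPARC was at 0.277, 139, 0.998 and 6.98 CPM in the same AAC steers, and between 0.509 and 4.59 CPM in the INR steers. For both genes, steers 21 and 41 stood above the INR range and the other 2 AAC steers within it or under it. OGN differed in another way, with 31.7, 37.34, 12.4 and 9.01 CPM in AAC and 2.71 to 12.28 CPM in INR. Its log2 fold change was 1.71 (SE 0.48, FDR = 0.0746, edgeR). At day 28, FSTL1, a secreted follistatin-like protein, was the 1 gene called (71.2 CPM in steer 21, 4.16 to 12.7 CPM in the other 3 AAC steers and 2.90 to 9.52 CPM in INR, with 0.713% of all genes called). Without steer 21, 0 of the 36 genes were called at either day, and the call of FSTL1 at day 28 was left only without steer 27 or steer 31. Leaving out another steer gave 1 gene (steer 17), 2 (steer 40), 3 (steers 23 and 43), 6 (steers 29 and 39), 7 (steer 41), 8 (steer 27), 11 (steer 9) or 14 (steer 31) at day 13. None of the 36 genes was called at days 0, 45 and 60, where 1.18%, 0.127% and 2.03% of all genes were called, with 5, 4 and 4 of the 36 genes, and 14%, 11.2% and 16.3% of all genes, at an unadjusted p under 0.05, and 0, 0 and 1 called by DESeq2. Without steer 27, 1 of the 36 genes was called at day 60, where 1390 of all genes were called.

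In healthy cattle, 34 of the 36 genes passed the filter over the 59 libraries, since ASPN and DPT did not, and 18269 genes were tested. AAC and INR at day 13 is the comparison that led to the choice of genes. The values there are a description, and the calls (FSTL1, PCOLCE, PI16 and TNS1, lower in AAC, with 0.312% of all genes called) carry no weight of their own. As a change from day 0 with the steer as a replicate block, TNS1, lower in AAC, was the only gene of the table called there, and nothing is read from it. PI16, a peptidase inhibitor found on fibroblasts, was at 3.53, 3.72 and 2.63 CPM in AAC steers 34, 46 and 49, and at 4.65, 6.66, 8.06 and 57.2 CPM in INR steers 7, 10, 30 and 50. PCOLCE was at 41.96, 37.17 and 36.51 CPM in AAC and at 45.43, 48.18, 46.37 and 75.24 CPM in INR. For both genes the AAC values were all below the INR values, from which nothing is read, since this comparison led to the choice. COL1A1 was at 48.8, 2.32 and 1.55 CPM in AAC and at 0.162, 0, 31.3 and 2492 CPM in INR, and the groups overlapped. Without steer 50 none of the 4 calls was left, and leaving out any of the 3 AAC steers had the same result. Leaving out INR steers 7, 10 or 30 gave 11, 19 and 16 genes, leaving out COMBO steer 3 gave 9, and leaving out COMBO steer 42 or 57 gave 2. The log2 fold change between AAC and INR had a median of -3.96 over the genes tested in healthy cattle and of 2.23 in BRD cattle at day 13, so the higher supplement group was INR in the one and AAC in the other. Both medians turned without the 11 high libraries, to 0.44 in healthy and -0.31 in BRD cattle. No test of this difference was made at day 13, since the values there led to the list. The difference of the supplement effect between healthy and BRD cattle was fitted at days 0, 28, 45 and 60, where the libraries were in view as well, and 0 of the 36 genes passed an FDR of 0.10 (edgeR), with 5, 12, 4 and 7 at an unadjusted p under 0.05. Of all 18937 genes, 4, 1, 9 and 5 passed, and about 10%, 12.9%, 12% and 14.8% had an unadjusted p under 0.05.

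The other 14 comparisons between supplements in healthy cattle called 0 of the 34 genes. With 1 steer left out, COMBO and INR at day 13 gave 5 genes (without steer 10) or 1 (without steer 7 or 30), AAC and INR at day 45 gave 1 (without steer 10), and no other of these fits gave any. Between AAC and INR, 0% of all genes were called at each of days 0, 28, 45 and 60, and 3, 3, 2 and 1 of the 34 genes had an unadjusted p under 0.05. Between AAC and COMBO, 0.186%, 0%, 0%, 0% and 0.00547% of all genes were called at the 5 days, with 3, 4, 6, 2 and 0 of the 34 at an unadjusted p under 0.05. Between COMBO and INR, 0.0274%, 0.0383%, 0%, 0% and 0.00547% of all genes were called, with 0, 19, 13, 1 and 0 of the 34. Of all genes, 8.12% and 5.06% had an unadjusted p under 0.05 between COMBO and INR at days 13 and 28, and 3.26% to 11.2% in the other 12 comparisons. The 19 and 13 genes at days 13 and 28 share the libraries of INR steers 50 and 30 with the comparisons of AAC and INR. DESeq2 called between 0 and 4 of the genes in these 14 comparisons.

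Markers of other cells were compared in the same libraries from lists that hold none of the 36 genes. These lists were also chosen with earlier results of these data known, so their counts and calls are a description. Of 27 fibroblast markers, 24 were at least 2-fold above their median in steer 50 at day 13, 23 in steer 21 at day 13, 20 in steer 21 at day 28 and 18 in steer 30 at day 28. CCDC80, a matrix protein of fibroblasts, reached 116.5 CPM in steer 50 and 66.2 CPM in steer 21 at day 13, with a median of 0.456 CPM over all libraries. FN1, fibronectin, reached 969 and 199 CPM in the same libraries against a median of 19.2 CPM. The most abundant gene of this list, VCAN (median 220 CPM), is also made by monocytes, and its highest value was in healthy COMBO steer 6 at day 0. At day 13 against day 0, 8 of the 24 fibroblast markers tested were called higher and 2 lower, and at day 28 it was 9 and 3. Of all genes, 10.1% and 10.5% were called higher at these days, and 21.1% and 21.2% in either direction. Between AAC and INR in BRD cattle at day 13, 9 were called higher and 0 lower, against 0.924% of all genes. As a change from day 0 with the replicate block, only 4 genes of the whole table were called there. Of 16 genes of collagen maturation, 5 were called higher and 4 lower at day 13. SERPINH1, the collagen chaperone HSP47, reached 34.05 CPM in steer 50 against a median of 3.28 CPM, whereas PPIB, a general chaperone of the secretory pathway and the most abundant of this list, had its highest value elsewhere.

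Markers of skeletal muscle had their highest sum in 1 of these libraries. In BRD AAC steer 21 at day 28 they summed to 164 CPM, the highest of all libraries (median 24.49 CPM), and 10 of 11 were at least 2-fold above their median. MYH1, a myosin heavy chain of fast fibres, was at 41 CPM there, and its next highest value was 2.71 CPM, and CKM, muscle creatine kinase, was at 11.1 CPM, with a next highest value of 2.13 CPM. In steer 50 at day 13 the same list summed to 31 CPM, with rank 37 from the top, with 1 of 11 genes raised. In 4 more of the high libraries 8 of 11 were raised, with sums of 28.7 to 52.56 CPM. Between AAC and INR in BRD cattle at day 28, 5 of the 11 were called higher and 0 lower, against 0.713% of all genes. As a change from day 0 with the steer as a replicate block, no gene of the table was called there. Of 13 endothelial markers, 9 were raised at least 2-fold in steer 50 at day 13, and their sum of 150 CPM ranked 9 from the top. Of 12 smooth muscle and pericyte markers, 7 were raised there. Keratinocyte markers were raised for 9 of 13 genes, yet they summed to 7.46 CPM, and KRT5 and KRT14 had a median of 0. Adipocyte markers summed to 27.31 CPM, rank 4, with ADIPOQ at 1.56 CPM, and Schwann cell markers to 73.2 CPM, rank 81, with MBP as the most abundant gene of that list (median 77.4 CPM).

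Markers of blood cells moved as well. The 7 leukocyte markers found in the table summed to 3606 CPM in steer 50 at day 13 and to 3516 CPM in steer 21 at day 13, the lowest sums of all libraries (median 4138 CPM). They were also low in steers 21 and 30 at day 28 (3621 and 3644 CPM), whereas the 4523 CPM of BRD INR steer 40 at day 28 ranked 9 from the top. Erythroid markers, led by HBA1, an alpha globin, summed to 12438 CPM in steer 50 (rank 18), 74586 CPM in steer 21 (rank 2) and 84783 CPM in BRD AAC steer 41 at day 13 (rank 1), with a median of 1779 CPM. At day 13 all 9 erythroid markers were called higher than at day 0, where 10.1% of all genes were called higher and 21.1% in either direction. At days 28, 45 and 60 it was 6, 8 and 5 of them, where 10.5%, 8.02% and 8.54% of all genes were called higher. Of the 7 platelet markers tested, 3 were called higher and 0 lower at day 13, against the same 10.1% of all genes called higher. The part of these cell markers in the changes of the 36 genes was not tested.

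**Figure D5:**
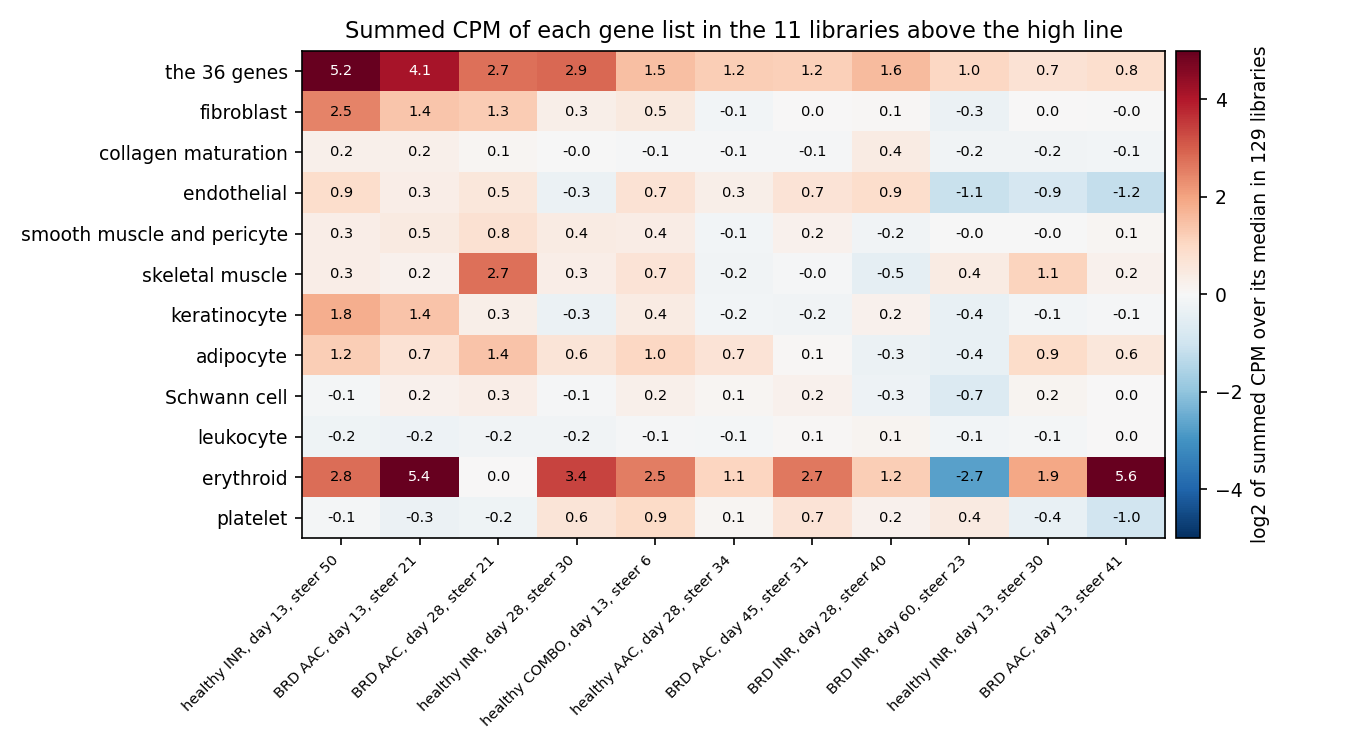
Log2 of the summed CPM of each gene list over its median in all libraries (colour and printed value) for the 11 libraries above the high line (x axis, in order of falling mean of the 36 genes). Fibroblast markers are high in the first 3 libraries, skeletal muscle markers in BRD AAC steer 21 at day 28, and erythroid markers in most of the 11 but not in all.

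Outside the list, the genes most like it were ranked by Spearman's rho with the mean of the 36 genes over all libraries, among genes with a mean of at least 10 counts. The first were IGFBP5, an insulin-like growth factor binding protein (0.731), PRELP, a leucine-rich proteoglycan (0.724), C1S, a complement protease (0.703), CCDC80 (0.689), MEG3, an imprinted long noncoding RNA (0.685), SERPINF1 (0.666), MGP, the matrix Gla protein (0.664), and SFRP4, a secreted Wnt antagonist (0.635). The next were NOV, NID1, SCARA5, GFPT2, COL4A1, H19, SFRP2, AKAP12, HTRA3, FGFR1, SERPING1 and ANGPTL2, down to a rho of 0.512. Of these 20 genes, 18 had their highest value in steer 50 at day 13 and the other 2, MGP and SERPING1, in steer 21 at day 13. IGFBP5 had a median of 0.0582 CPM and a highest value of 29.4 CPM, and it was at least 2-fold above its median in all 11 high libraries. These correlations are a description, and they share the libraries that define the mean.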

How the data were processed

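The deposited values were gene-level counts, which the authors made by trimming with Trimmomatic 0.39, mapping to ARS-UCD1.3 with HISAT2, assembly with StringTie 2.2.0 and conversion of read coverage to whole counts, without normalization. No per-sample column was left unused. The members and the marker lists were chosen with earlier results of these data known.

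CPM and log2 CPM (prior count 2) were computed with TMM factors in edgeR 4.0.16 (R 4.3.3). Tests were edgeR's quasi-likelihood F-tests with a common dispersion, filterByExpr and Benjamini-Hochberg adjustment over all tested genes at 0.10, with 1 mean for each disease, supplement and day (129 libraries, 18937 genes) or for healthy cattle alone (59 libraries, 18269 genes). Standard errors were derived as the size of the fold change over the square root of F. The biological coefficient of variation was 39.0%. These fits treat libraries of a steer as independent: deviations from group means correlated by a median of 0.371 between libraries of the same steer and -0.0101 between different steers on different days, and the labels give the steer, so the steer was also fitted as a replicate block. Alternatives were RLE factors, DESeq2 1.42.0, other filters, a trended dispersion, an FDR of 0.05 each steer left out and, after seeing the data, the libraries of BRD cattle alone or without the 11 high libraries. The procedure was tested on simulated data, of which no outcome is given or used here. Named members are the 8 with the largest summed CPM and the 10 of smallest p among those called outside the healthy AAC and INR comparison at day 13. Day 13 against day 0 counted among these, although it holds libraries that led to the list. Other members are given by counts or named after their values were seen. Sequences were not used here.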

Additional observations from a re-analysis of the deposited data

Results flagged for a closer look

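In 24 groups of 4 or 7 libraries of the same disease, supplement and day, the mean log2 CPM of the 36 genes was examined for a library far from the others by Dixon's ratio, for which chance alone marks about 1 group in 20, and 3 groups had one. This mean was in view when the genes were chosen, so the ratios are a description. Healthy AAC steer 34 stood apart at day 28 with a mean of 1.97 and again at day 60 with 1.44. Healthy INR steer 30 stood apart at day 28 with 3.14. Healthy INR steer 50 at day 13, the highest library, was not marked in its group of 4, in which steer 30 was also high.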

How the results depend on the processing

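Scaling, the prior count and 4 genes also used by blood cells (SPARC, TNS1, SDC3 and LOX) mattered little to the highest library. It stood 5.97 above the median of the mean log2 CPM, against 6.00 with RLE factors and 6.05 with library totals only. The value was 6.45 with a prior count of 0.5, 5.58 with one of 5, and 6.07 without the 4 genes. With each steer left out it lay between 4.66 and 6.00. The 11 high libraries were 3 with the median over genes, 4 with a line at 5 scaled deviations, and 10 to 12 with each steer left out. Over the 4 later days, 46 calls became 13 without the 11 high libraries (chosen after seeing the data), 18 with the libraries of BRD cattle alone (also chosen after), 73 with the steer as a replicate block and 38 to 48 with each steer left out. Between BRD and healthy cattle, 0 calls became 9 with DESeq2 and stayed at 0 with each steer left out. Between AAC and INR in BRD cattle over the 5 days, 7 calls became 3 at an FDR of 0.05, 0 without the 11 libraries, 0 for the change from day 0 with the replicate block, and 0 to 15 with each steer left out. In healthy cattle, 4 calls became 2 at an FDR of 0.05, 8 with a mean of at least 10 counts, 15 with the libraries of BRD cattle in the fit, 40 with DESeq2, 0 without the 11 libraries, 1 for the change from day 0 with the replicate block, and 0 to 25 with each steer left out.

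Of the 57 calls of single genes, 4 of them from the healthy comparison at day 13 that led to the list, 11 changed sign, each without the 11 libraries. Against day 0, COL6A3 (-0.17), FSTL1 (-0.22), MFAP4 (-0.20) and PI16 (-0.11) did so at day 13 and COL1A1 (-0.13) at day 28. Between AAC and INR at day 13, COL6A1 (-1.13), COL6A2 (-0.96), FBLN1 (-0.087), FSTL1 (-0.19) and SPARC (-1.99) did so in BRD and FSTL1 (0.36) in healthy cattle. The cause was not tested. With each steer left out, 1189 of these fits kept the call, 132 lost it and 0 changed sign. Fold changes against day 0 depend on the prior count for 8 of the 36 genes, which had a group without any count. Repeated libraries of 26 steers are not independent, although the tests without a block treat them so.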
